A study of Mus musculus with 9 samples.

Results

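The unfolded protein response and the integrated stress response were followed through 36 genes in monocytic myeloid-derived suppressor cells. These M-MDSCs resemble monocytes and hold back T cells in tumours. The genes were found by symbol and are 36 of the 54532 genes of the FPKM table (a level scaled to gene length and library depth). All 36 were also among the 9877 genes of the count table, so none was lost to a filter on low counts. A further identifier that carries the symbol Ddit3 held 0 counts in all libraries and was not followed. The cells were sorted from tumours that the colon carcinoma line MC38 had formed in mice, and poly-A RNA was sequenced from 3 libraries each of WT, LILRB4+/+ and LILRB4+/+ SCG2-/- mice, called WT, LILRB4 and SCG2 knockout libraries here. All groups carried the same tumour, and the SCG2 knockout mice also carried the LILRB4+/+ genotype, so that LILRB4 libraries are the control for the loss of SCG2. What the LILRB4 allele is, how the cells were gated, the age of the mice, and whether a library holds 1 mouse or a pool is not given in the labels. The p-values therefore reflect the scatter among these samples, part or all of which may be technical.

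The unfolded protein response begins at sensors in the membrane of the endoplasmic reticulum, namely IRE1 (gene Ern1), PERK (Eif2ak3) and ATF6. IRE1 splices Xbp1 mRNA, and spliced XBP1 and cleaved ATF6 switch on chaperones, folding enzymes and the machinery that degrades misfolded proteins. PERK phosphorylates eIF2, which slows translation in general but lets ATF4 be made; kinases that sense amino acid shortage, haem or double-stranded RNA feed into the same step, and the joint pathway is the integrated stress response. In tumour myeloid cells, PERK and CHOP (gene Ddit3) are known for their part in suppressive function. Splicing of Xbp1, phosphorylation and translation were not measured here, since gene totals show mRNA amounts only.

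The libraries held 14501163 to 27219202 counts, of which the 36 genes took 1.03 to 1.47%. Monocyte genes were present in all libraries (Cd14 at 756 to 2688 FPKM, Csf1r at 61.6 to 189.6 FPKM), but not all were even. Lyz2 stood at 11.8 to 109 FPKM in WT, 11.4 to 18.6 FPKM in LILRB4 and 252 to 849 FPKM in SCG2 knockout libraries. The epithelial markers summed to at most 2.77 FPKM, and fibroblast markers to 173 to 308 FPKM. The deleted gene gave no check of the labels: Scg2 reached 1 count in each of WT replicate 1 and LILRB4 replicate 1. Elsewhere it had 0, which allows up to 3 counts (at most 0.200 CPM, for counting error only). Lilrb4a stood at 47.7 to 137.8 FPKM in WT, at 154 to 274 FPKM in LILRB4 and at 131 to 157 FPKM in SCG2 knockout libraries. Markers of T and NK cells separated the libraries across genotypes. Their sum was 66.5 to 89.2 FPKM in WT replicates 2 and 3 and LILRB4 replicate 2, and 237 to 419 FPKM in the other 6 libraries. Of the 11 markers, 10 were lower in each of those 3 libraries than in any other library, and none was at 0 in any library. The dendritic marker sum followed the same order (30.0 to 49.3 FPKM against 79.3 to 153), with 4 of 6 markers lower in each of the 3 libraries. It was mostly Ccr7, at 68.6 of 79.3 FPKM in WT replicate 1 and 140 of 153 FPKM in SCG2 knockout replicate 2. Xcr1 and Clec9a did not follow, with Xcr1 at 2.03 FPKM in LILRB4 replicate 2 and 0.63 FPKM in WT replicate 1. The B and plasma cell marker sum split the libraries in the same way. It was 4.4 to 6.1 FPKM in WT replicates 2 and 3 and LILRB4 replicate 2, and 14.4 to 43.5 FPKM in the others. Of its 7 markers, 3 were lower in each of those 3 libraries than in any other. This sum was used in no fit, and its part in the levels of the 36 genes was not tested. Thus 2 of the 3 WT libraries and 1 of the 3 LILRB4 libraries were low in these 3 sums, and no SCG2 knockout library was. Fits that hold the T and NK sum or the dendritic sum as a covariate are given beside Ern1, Eif2ak3 and Chac1. Neutrophil markers had another order and were used in no fit. They summed to 41.9 to 76.1 FPKM in WT, 87.6 to 230 FPKM in LILRB4 (highest in replicate 2) and 39.2 to 54.5 FPKM in SCG2 knockout libraries. In bulk RNA, fewer cells of a type and less RNA per cell cannot be told apart.

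None of the 36 genes passed the adjusted threshold of the edgeR test in any of the comparisons, and Psat1, Ern1, Eif2ak3 and Chac1 passed in some alternatives, which are given with each gene. In LILRB4 against WT, 0 genes were called higher and 0 lower, against 1.73% higher and 0.516% lower of all 9877 genes tested (edgeR quasi-likelihood test, adjusted p by Benjamini-Hochberg at a threshold of 0.05). No gene was called in either direction when SCG2 knockout was set against LILRB4 or WT (0 of the 36 and 0% of all genes in each), so no gene of the whole table passed there. The same model on counts recovered from FPKM, which covers 15743 genes, also called 0 of the 36, against 0.87% of all genes in LILRB4 against WT and 0% in the other comparisons. DESeq2 called Psat1 and Ern1 in LILRB4 against WT and Ern1 in SCG2 knockout against WT, where it called 9.36% and 0.932% of all genes. In SCG2 knockout against LILRB4 it gave an adjusted p to 7387 genes only and called 2.53% of them. None of the 36 was called there, and Chac1 was among the genes without an adjusted p.

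At an unadjusted p under 0.05, which makes no allowance for the number of genes, 4 of the 36 were higher and 5 lower in LILRB4 than in WT. The background in this comparison was 11.3% in each direction, so about the same share of all genes met this mark. For SCG2 knockout against LILRB4 there were 2 higher and 1 lower (background 4.88% and 6.18%). For SCG2 knockout against WT there were 8 higher and 0 lower (background 8.47% and 6.11%). Standard errors (SE) of the log2 fold changes set the precision: they ran from 0.12 for Sesn2 to 0.33 for Ern1, with a median of 0.17. The plot of fitted differences shows all 36 genes with these errors.

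**Figure D1:**
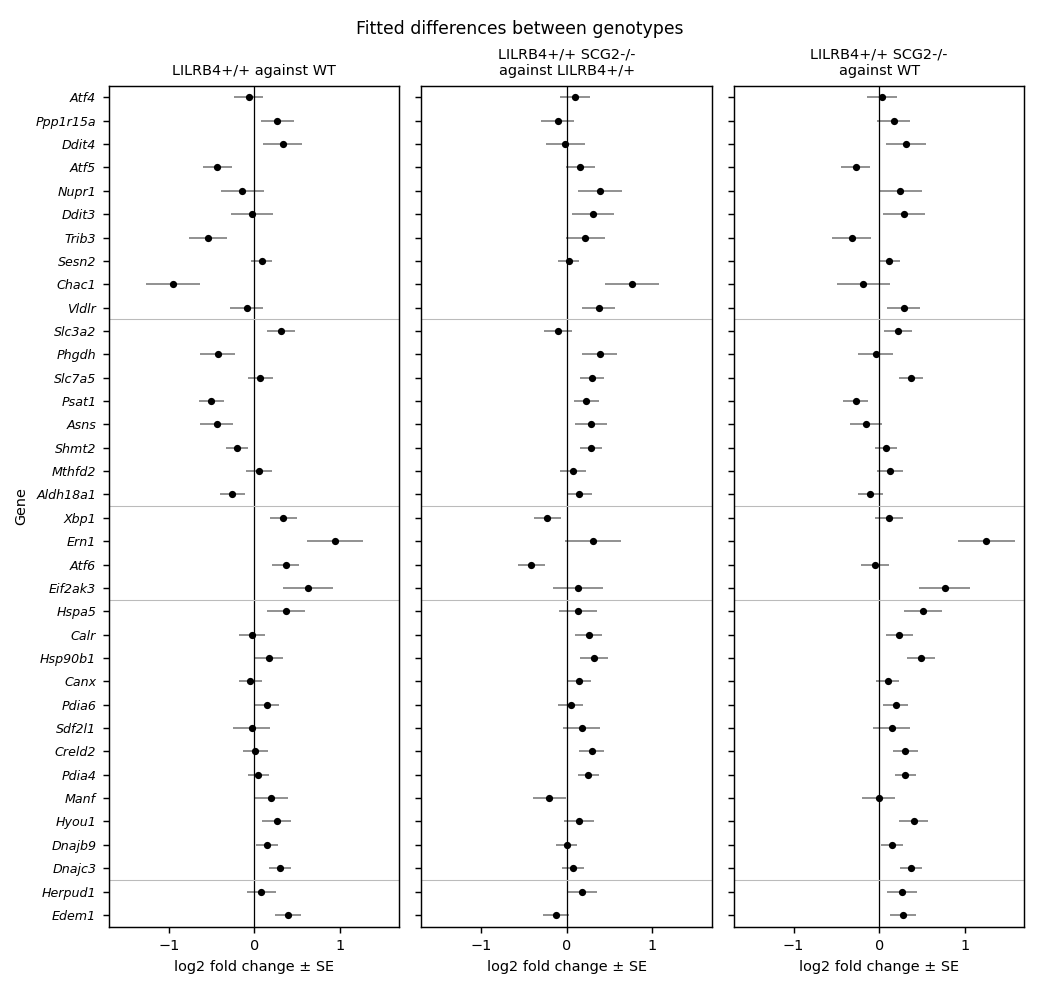
Log2 fold change (horizontal axis) of each of the 36 genes (rows, ordered by role) in the 3 comparisons, with points for the edgeR estimate and bars for ± 1 SE. Most chaperones lie to the right of 0 in LILRB4+/+ SCG2-/- against WT (11 of 12), Ern1 has the largest difference there (1.26), and no gene passed the adjusted threshold in any panel.

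The median log2 fold change over the 36 genes was 0.06 in LILRB4 against WT, 0.15 in SCG2 knockout against LILRB4 and 0.18 in SCG2 knockout against WT. The medians over all genes tested were -0.02, 0.03 and 0.00. A higher fitted mean in SCG2 knockout than in WT was found for 27 of the 36, against 50.4% of all genes. Against LILRB4 it was 28 of 36, against 55.6% of all genes. In LILRB4 against WT it was 21 of 36, against 48.0%. The median in SCG2 knockout against WT was 0.11 with the T and NK marker sum as a covariate and 0.09 with the dendritic sum. These comparisons share libraries with one another (each pair has 1 group in common), so they are not independent of each other. The libraries of a group also differed: the median deviation of the 36 genes from their own means, on the log2 scale, was -0.12, 0.03 and -0.16 for WT replicates 1 to 3, 0.05, -0.10 and 0.03 for LILRB4, and 0.14, 0.10 and -0.05 for the SCG2 knockout. The groups overlap on this measure.

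**Figure D2:**
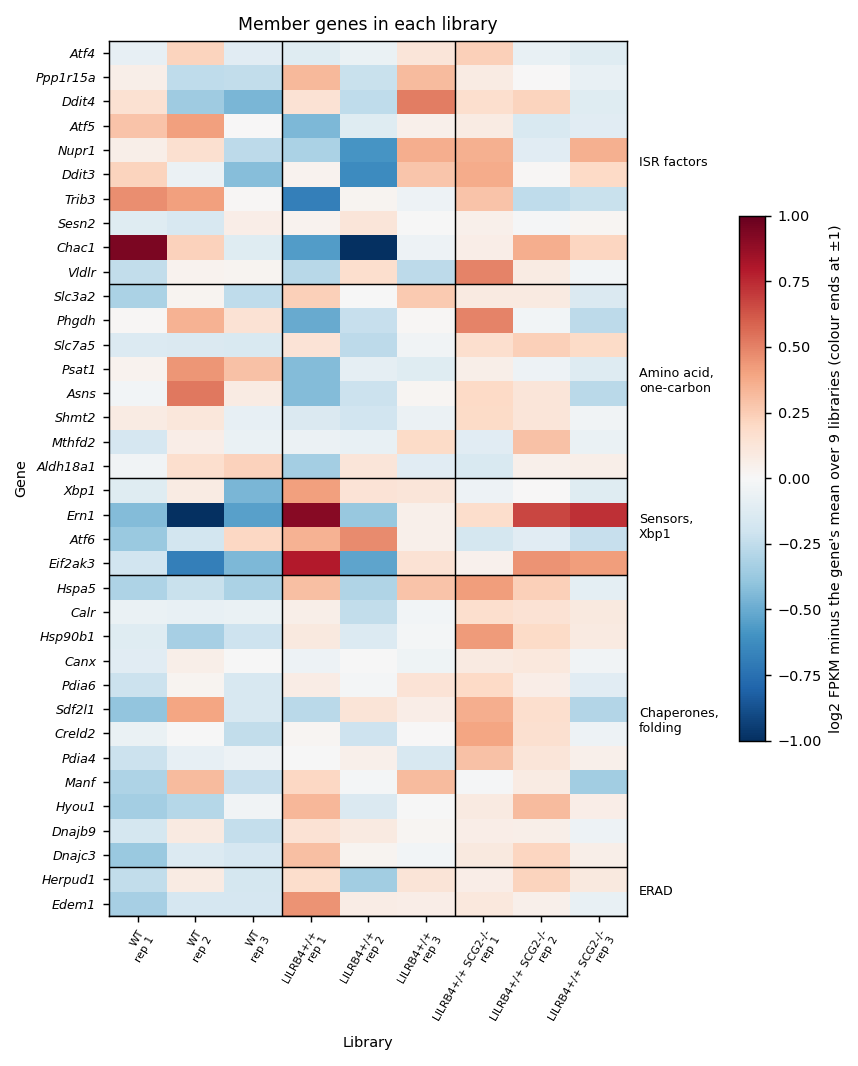
Log2 FPKM of each of the 36 genes (rows, grouped by role) in each of the 9 libraries (columns), relative to the gene's mean over the 9 libraries; red is above and blue below that mean, and the colour scale ends at ±1. Ern1 and Eif2ak3 are high in LILRB4+/+ replicate 1 and LILRB4+/+ SCG2-/- replicates 2 and 3, and the chaperone rows are mostly red in LILRB4+/+ SCG2-/- replicate 1 and paler in replicate 3.

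Ern1 (chr11:106394650-106487852, minus strand, GRCm38) encodes IRE1, the kinase and RNase that splices Xbp1. It stood at 12.4, 7.41 and 11.5 FPKM in WT replicates 1 to 3, at 31.5, 12.9 and 17.4 FPKM in LILRB4, and at 19.0, 26.6 and 27.9 FPKM in SCG2 knockout libraries. Every LILRB4 and every SCG2 knockout library lay above every WT library, while LILRB4 and SCG2 knockout libraries overlapped. The means were 10.4 ± 2.66, 20.6 ± 9.73 and 24.5 ± 4.82 FPKM (SD, n = 3 each). The log2 fold change was 0.95 (SE 0.33, edgeR adjusted p = 0.132) in LILRB4 against WT and 1.26 (SE 0.33, adjusted p = 0.317) in SCG2 knockout against WT. The second was the only difference of any of the 36 genes beyond 1 on the log2 scale. Over the alternatives the adjusted p of Ern1 went as low as 0.0311 in the first comparison and 0.0170 in the second, both with DESeq2, and as high as 0.443 and 0.999.

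Eif2ak3 (chr6:70844515-70905245, plus strand), which encodes the kinase PERK, had a like order of libraries. It stood at 7.58, 5.38 and 6.33 FPKM in WT, 15.0, 6.0 and 9.56 FPKM in LILRB4, and 8.89, 11.8 and 11.6 FPKM in SCG2 knockout libraries. SCG2 knockout lay wholly above WT, and LILRB4 replicate 2 fell among the WT libraries. The log2 fold change was 0.63 (SE 0.29, adjusted p = 0.234) in LILRB4 against WT and 0.77 (SE 0.29, adjusted p = 0.330) in SCG2 knockout against WT.

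Ern1 and Eif2ak3 had nearly the order of the T and NK markers within each genotype. In WT libraries, replicate 1 was highest in the T and NK sum (254 FPKM) and in both genes, and replicate 2 was lowest (74.4 FPKM). In LILRB4 libraries, replicate 2, with the lowest T and NK sum (66.5 FPKM), had the lowest Ern1 and Eif2ak3, and replicate 1, with the highest (412 FPKM), had the highest. Among SCG2 knockout libraries, replicate 1 was lowest in the markers (237 FPKM) and in both genes. With the log2 T and NK sum as a covariate, a fit added after the sums were seen, the log2 fold change of Ern1 was 0.56 in LILRB4 against WT and 0.67 in SCG2 knockout against WT, and that of Eif2ak3 was 0.22 and 0.17. With the dendritic sum in its place the values were 0.63 and 0.83 for Ern1 and 0.28 and 0.31 for Eif2ak3. None of these passed the threshold. Without LILRB4 replicate 2, both genes passed in LILRB4 against WT (Ern1 1.21, adjusted p = 0.0393; Eif2ak3 0.91, adjusted p = 0.0423, with a range over its alternatives of 0.0423 to 0.719). Without LILRB4 replicate 1, Ern1 was at 0.53 and Eif2ak3 at 0.27, so single libraries decide these values.

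**Figure D3:**
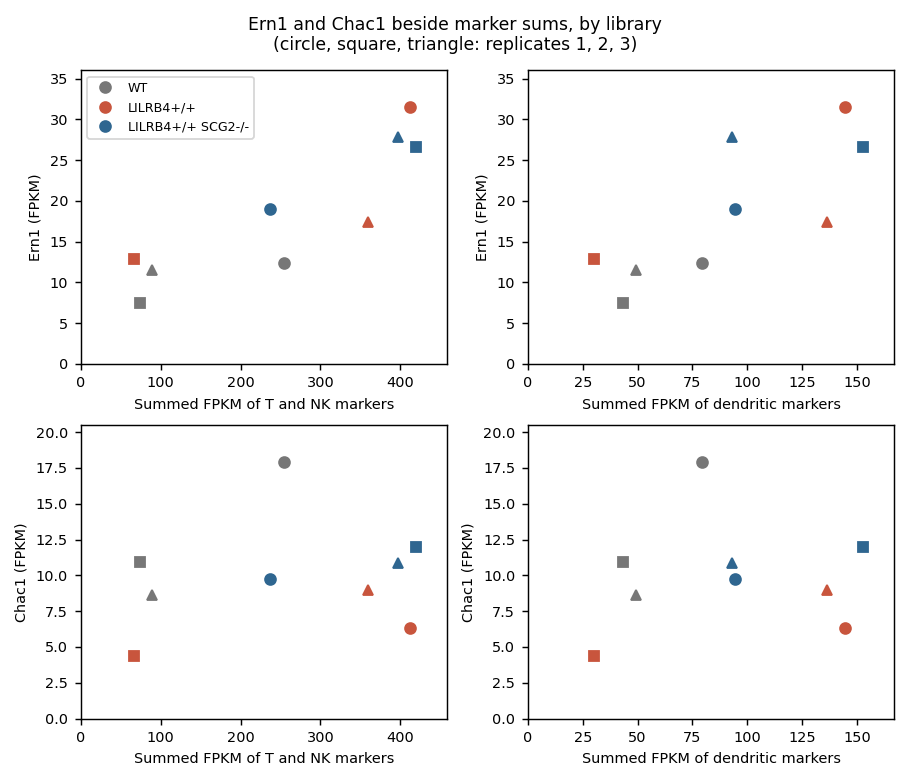
Ern1 (top row) and Chac1 (bottom row) in FPKM against the summed FPKM of T and NK cell markers (left) and of dendritic cell markers (right), 1 point per library, coloured by genotype. Ern1 is at most 12.9 FPKM in the 3 libraries with the lowest T and NK sums. It is also 12.4 FPKM in WT replicate 1, with a sum of 254 FPKM. Across genotypes Chac1 shows no such order, at 6.36 FPKM in LILRB4+/+ replicate 1 and 10.9 FPKM in WT replicate 2. Within genotypes Chac1 partly follows the T and NK sum. Both are lowest of LILRB4+/+ in replicate 2 (Chac1 4.40 FPKM) and highest of WT in replicate 1 (Chac1 17.9 FPKM). In LILRB4+/+ SCG2-/- libraries both have the same order.

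Atf6 (chr1:170704674-170867771, minus strand), the sensor that is cleaved into a transcription factor, stood at 6.93, 7.91 and 10.4 FPKM in WT, 11.4, 12.5 and 9.29 FPKM in LILRB4, and 7.94, 8.32 and 7.64 FPKM in SCG2 knockout libraries. LILRB4 libraries lay wholly above the SCG2 knockout libraries and overlapped with WT. The log2 fold change was -0.41 (SE 0.16, adjusted p = 0.387) in SCG2 knockout against LILRB4 and 0.37 (SE 0.16, adjusted p = 0.207) in LILRB4 against WT. Xbp1 (chr11:5520659-5525893, plus strand), the substrate of IRE1, had a similar order, with 57.6, 66.4 and 45.5 FPKM in WT, 82.9, 68.8 and 67.9 FPKM in LILRB4, and 60.5, 62.6 and 57.6 FPKM in SCG2 knockout libraries. LILRB4 libraries were above all others. Xbp1 had a log2 fold change of 0.34 (SE 0.16, adjusted p = 0.240) in LILRB4 against WT and -0.22 (SE 0.16, adjusted p = 0.644) in SCG2 knockout against LILRB4. All 4 genes of this role had a higher fitted mean in LILRB4 than in WT, with a median of 0.50. They parted in SCG2 knockout against LILRB4, with Ern1 and Eif2ak3 at 0.31 and 0.14 and Atf6 and Xbp1 below 0.

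The chaperones and folding enzymes were the most abundant role. Hspa5, which encodes BiP, the chaperone that holds the sensors inactive, made up 25.1% of the summed mean FPKM of the 36 genes (886 FPKM over the 9 libraries), and the calcium-binding chaperone Calr another 10.4%. Promoter windows are shown for 5 genes of this arm, because they hold the letters of the endoplasmic reticulum stress elements through which ATF6, XBP1 and their partner NF-Y act. The windows run from 250 bases before to 50 bases after the transcription start (RefSeq, GRCm38.p6) and were found for 32 of the 36 genes; Atf6, Hyou1, Manf and Slc7a5 had none. Each is written 5′ to 3′ on the gene's strand, with the fixed letters of each match in capitals. The elements searched, on both strands, were ERSE (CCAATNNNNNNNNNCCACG, N any base), ERSE-II (ATTGGNCCACG) and the ATF4-type element CARE (TTNCATCA), which Herpud1 holds from -112; the UPRE (TGACGTGG) was in no window of these 32 genes. An ERSE on the other strand reads CGTGG, 9 bases, ATTGG. The window of Hspa5 lies at chr2:34771840-34772139 on the plus strand, and that of Herpud1 at chr8:94386179-94386478 on the plus strand. On the minus strand are the windows of Hsp90b1 (chr10:86705395-86705694), Calr (chr8:84846882-84847181) and Canx (chr11:50325624-50325923).
Hspa5: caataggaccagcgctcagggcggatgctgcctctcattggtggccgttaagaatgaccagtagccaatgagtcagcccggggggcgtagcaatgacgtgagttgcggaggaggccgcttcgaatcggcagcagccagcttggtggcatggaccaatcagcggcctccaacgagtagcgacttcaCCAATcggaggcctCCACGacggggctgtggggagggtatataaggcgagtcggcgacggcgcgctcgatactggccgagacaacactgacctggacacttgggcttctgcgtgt
Hsp90b1: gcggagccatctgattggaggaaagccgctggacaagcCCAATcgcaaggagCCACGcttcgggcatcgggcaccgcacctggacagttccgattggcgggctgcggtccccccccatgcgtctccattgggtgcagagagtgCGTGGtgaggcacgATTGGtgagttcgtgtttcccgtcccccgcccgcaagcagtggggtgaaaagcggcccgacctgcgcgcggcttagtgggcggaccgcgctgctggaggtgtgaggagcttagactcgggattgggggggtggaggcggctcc
Calr: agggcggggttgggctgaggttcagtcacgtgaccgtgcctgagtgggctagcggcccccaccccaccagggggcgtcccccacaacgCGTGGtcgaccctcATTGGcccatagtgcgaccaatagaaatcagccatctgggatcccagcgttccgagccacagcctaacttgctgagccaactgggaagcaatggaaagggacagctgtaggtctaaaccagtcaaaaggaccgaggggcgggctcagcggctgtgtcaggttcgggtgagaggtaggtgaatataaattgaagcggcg
Canx: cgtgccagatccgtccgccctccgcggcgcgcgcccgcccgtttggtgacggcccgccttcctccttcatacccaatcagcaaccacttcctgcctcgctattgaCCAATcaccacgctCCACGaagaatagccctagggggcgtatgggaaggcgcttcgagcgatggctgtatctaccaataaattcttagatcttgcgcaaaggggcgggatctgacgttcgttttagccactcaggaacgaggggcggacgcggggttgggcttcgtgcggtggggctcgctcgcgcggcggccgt
Herpud1: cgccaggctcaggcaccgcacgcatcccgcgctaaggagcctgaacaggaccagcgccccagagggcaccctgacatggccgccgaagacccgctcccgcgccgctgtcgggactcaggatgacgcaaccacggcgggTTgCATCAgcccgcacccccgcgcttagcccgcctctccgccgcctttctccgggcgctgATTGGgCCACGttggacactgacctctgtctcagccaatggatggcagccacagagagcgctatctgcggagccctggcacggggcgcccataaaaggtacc
In Hspa5 the ERSE begins 65 bases before the start. Hsp90b1 holds 2, from -212 on the gene's strand and from -107 on the other. Calr holds 1 from -162 on the other strand, Canx 1 from -145, and Herpud1 an ERSE-II from -52.

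ERSE letters were found in 7 of the 32 genes with a window (21.9%), those of Hspa5, Hsp90b1, Calr, Canx, Creld2, Dnajc3 and Pdia6, against 0.137% of the 27025 genes in the promoter table. ERSE-II was found in 1 of 32 (3.12%) against 0.0444%, and UPRE in 0 of 32 against 0.714%. CARE letters were found in 6 of 32 (18.8%), in Asns, Chac1, Herpud1, Nupr1, Trib3 and Vldlr, against 4.51%. A match is a run of letters and not a measured binding site, and no match says only that the letters are not in this window. The 7 genes with an ERSE all had a higher fitted mean in SCG2 knockout than in WT, from 0.10 (Canx) to 0.51 (Hspa5), with a median of 0.31, and none passed the test. The 6 other tested genes with an ERSE in the window had 5 higher and a median of 0.29. They include a gene of the degradation list followed below. In LILRB4 against WT, 5 of the 7 were higher (median 0.15), and 3 of the 6 other genes (median 0.03). In SCG2 knockout against LILRB4, all 7 and all 6 were higher, each with a median of 0.15. The 6 genes with a CARE had 5 of 6 lower in LILRB4 than in WT (median -0.29) and 6 of 6 higher in SCG2 knockout than in LILRB4 (median 0.33), which share the LILRB4 libraries. The 210 other tested genes with a CARE had medians of 0.03 and 0.00 in these comparisons. In SCG2 knockout against WT, 3 of the 6 genes with a CARE were higher and 3 lower (median 0.05).

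Hspa5 itself stood at 702, 746 and 698 FPKM in WT, 1067, 707 and 1059 FPKM in LILRB4, and 1161, 1025 and 813 FPKM in SCG2 knockout libraries. WT libraries were close together, LILRB4 replicate 2 fell among them, and SCG2 knockout lay wholly above WT. Hspa5 had a log2 fold change of 0.51 (SE 0.22, adjusted p = 0.337) in SCG2 knockout against WT and 0.38 (SE 0.22, adjusted p = 0.334) in LILRB4 against WT. Hsp90b1, which encodes the lumenal HSP90 paralogue GRP94, stood at 179, 155 and 169 FPKM in WT, 209, 177 and 192 FPKM in LILRB4, and 262, 223 and 207 FPKM in SCG2 knockout libraries. SCG2 knockout lay wholly above WT, and LILRB4 overlapped with both. Hsp90b1 had a log2 fold change of 0.49 (SE 0.16, adjusted p = 0.317) in SCG2 knockout against WT and 0.17 (SE 0.16, adjusted p = 0.557) in LILRB4 against WT.

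Dnajc3, a co-chaperone of BiP also known as an inhibitor of eIF2 kinases, stood at 16.7, 19.6 and 19.1 FPKM in WT, 26.5, 22.0 and 21.2 FPKM in LILRB4, and 23.0, 25.0 and 22.4 FPKM in SCG2 knockout libraries. Both other groups lay wholly above WT and overlapped with each other. The fitted log2 fold change of Dnajc3 was 0.30 (SE 0.13, adjusted p = 0.209) in LILRB4 against WT and 0.38 (SE 0.13, adjusted p = 0.317) in SCG2 knockout against WT. Pdia4, a disulphide isomerase, stood at 51.6, 56.5 and 57.8 FPKM in WT, 59.7, 62.2 and 53.6 FPKM in LILRB4, and 73.6, 65.3 and 62.0 FPKM in SCG2 knockout libraries. Only the SCG2 knockout libraries were clear of WT, and the highest LILRB4 library exceeded the lowest SCG2 knockout library. For Pdia4 the fit gave a log2 fold change of 0.30 (SE 0.12, adjusted p = 0.330) in SCG2 knockout against WT and 0.25 (SE 0.12, adjusted p = 0.466) in SCG2 knockout against LILRB4. Calr was the most even of the 36 genes in WT, at 349.3, 346.8 and 349.6 FPKM, and stood at 382, 309 and 358 FPKM in LILRB4 and 411, 404 and 391 FPKM in SCG2 knockout libraries. SCG2 knockout lay above both other groups, by a log2 fold change of 0.26 (SE 0.16, adjusted p = 0.567) over LILRB4 and 0.23 (SE 0.16, adjusted p = 0.477) over WT.

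The other chaperone-role genes were Canx (a lectin chaperone), Pdia6, Creld2, Sdf2l1, Hyou1, Dnajb9 and Manf. Hyou1, an exchange factor for BiP, was clear of WT in SCG2 knockout libraries (43.0, 44.6 and 53.1 against 57.9, 67.9 and 57.1 FPKM; log2 fold change 0.41, SE 0.17, adjusted p = 0.334). Manf, a factor of the lumen that can be secreted, was at 0.20 in LILRB4 against WT and -0.20 in SCG2 knockout against LILRB4 (adjusted p = 0.557 and 0.743), and its libraries overlapped throughout. Of the 12 genes, 11 had a higher fitted mean in SCG2 knockout than in WT, with a median of 0.27. Summed over the role, levels were 1791 ± 70.4 FPKM in WT, 2092 ± 271 FPKM in LILRB4 and 2262 ± 274 FPKM in SCG2 knockout libraries (SD, n = 3 each). The sum is dominated by Hspa5. SCG2 knockout replicate 3 was the lowest of its group for 12 of 12 genes, with a sum of 1970 FPKM against 2303 and 2512, so the libraries of this genotype differed in common across the role.

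Genes that remove misfolded proteins were Herpud1, a membrane scaffold of the degradation complex, and Edem1 (chr6:108828641-108859356, plus strand), which extracts misfolded glycoproteins. Edem1 stood at 39.1, 43.6 and 43.8 FPKM in WT, 66.9, 51.6 and 51.4 FPKM in LILRB4, and 52.8, 50.8 and 46.5 FPKM in SCG2 knockout libraries. Both other groups lay wholly above WT. The log2 fold change was 0.40 (SE 0.15, adjusted p = 0.157) in LILRB4 against WT and 0.28 (SE 0.15, adjusted p = 0.394) in SCG2 knockout against WT, and it was -0.12 (SE 0.15, adjusted p = 0.823) in SCG2 knockout against LILRB4. Herpud1 overlapped between all groups, at 91.6 to 137 FPKM over the 9 libraries.

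Psat1 (chr19:15904678-15947337, minus strand), an enzyme of serine synthesis and a textbook ATF4 target, had the smallest adjusted p of the 36 genes. It stood at 37.0, 48.9 and 44.2 FPKM in WT, 26.6, 33.8 and 33.1 FPKM in LILRB4, and 37.6, 34.8 and 32.9 FPKM in SCG2 knockout libraries. Every LILRB4 library was below every WT library, and SCG2 knockout overlapped with both. Psat1 had a log2 fold change of -0.50 (SE 0.15, adjusted p = 0.0857) in LILRB4 against WT, 0.23 (SE 0.15, adjusted p = 0.587) in SCG2 knockout against LILRB4, and -0.27 (SE 0.15, adjusted p = 0.384) in SCG2 knockout against WT. It passed with DESeq2 (-0.48, adjusted p = 0.0340) and with library totals in place of TMM factors (-0.64, adjusted p = 0.0408), a scaling that moves the median of all genes to -0.15. Over all alternatives its adjusted p ran from 0.0340 to 0.538.

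The neighbouring enzymes also had lower fitted means in LILRB4 than in WT, without passing. Phgdh, the first enzyme of serine synthesis, was at -0.43 (SE 0.21, adjusted p = 0.249), Asns, asparagine synthetase, at -0.44 (SE 0.19, adjusted p = 0.199), Aldh18a1, of proline synthesis, at -0.25 (SE 0.14, adjusted p = 0.316), and Shmt2, a mitochondrial enzyme of the folate cycle, at -0.20 (SE 0.13, adjusted p = 0.358). Single libraries weighed on these values: Asns was at -0.24 without WT replicate 2, and without LILRB4 replicate 1 Phgdh was at -0.28 and Aldh18a1 at -0.12. Asns stood at 30.9, 45.4 and 33.4 FPKM in WT, 23.3, 27.1 and 31.9 FPKM in LILRB4, and 36.3, 34.3 and 26.1 FPKM in SCG2 knockout libraries, and all groups overlapped. Mthfd2, the other mitochondrial folate enzyme, was at 0.05, and the amino acid transporter pair went the other way, with Slc3a2 at 0.32 (SE 0.16, adjusted p = 0.269) and Slc7a5 at 0.07 (SE 0.14, adjusted p = 0.784). The median of the 8 genes of this role was -0.23 in LILRB4 against WT and 0.26 in SCG2 knockout against LILRB4, and WT replicate 2 was the highest of its group for 6 of the 8.

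Slc7a5 (chr8:121881150-121907694, minus strand), the large neutral amino acid carrier, stood at 55.8, 55.4 and 55.2 FPKM in WT, 67.5, 51.1 and 59.9 FPKM in LILRB4, and 69.0, 72.5 and 69.9 FPKM in SCG2 knockout libraries. SCG2 knockout was above both other groups in every library. Its log2 fold change was 0.37 (SE 0.14, adjusted p = 0.327) over WT and 0.30 (SE 0.14, adjusted p = 0.461) over LILRB4. Shmt2 was higher in every SCG2 knockout library (33.1, 31.5 and 28.3 FPKM) than in any LILRB4 library (26.1, 25.4 and 27.7 FPKM), with a log2 fold change of 0.28 (SE 0.13, adjusted p = 0.442), and WT overlapped with both.

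Among the factors and brakes of the integrated stress response, the largest fitted difference was that of Chac1. Chac1 (chr2:119351229-119354381, plus strand), a glutathione-degrading enzyme that ATF4 and CHOP switch on, stood at 17.9, 10.9 and 8.61 FPKM in WT, 6.36, 4.40 and 9.0 FPKM in LILRB4, and 9.76, 12.0 and 10.8 FPKM in SCG2 knockout libraries. WT replicate 3 was below LILRB4 replicate 3, so these groups overlapped, and SCG2 knockout lay wholly above LILRB4. The log2 fold change was -0.95 (SE 0.32, adjusted p = 0.118) in LILRB4 against WT and 0.77 (SE 0.32, adjusted p = 0.414) in SCG2 knockout against LILRB4. WT replicate 1 had the highest sum of a list of immediate-early and heat shock genes (4362 FPKM), in which Hspa1b stood at 1386 and Hspa1a at 727 FPKM. Within WT and within LILRB4 libraries Chac1 had the order of this sum, and within SCG2 knockout libraries the reverse order. The part of these genes in the value of Chac1 was not tested. Without WT replicate 1 the log2 fold change of Chac1 in LILRB4 against WT was -0.57. With the T and NK sum as a covariate it was -1.27 (edgeR adjusted p = 0.0149), in a fit that called 309 of all 9877 genes. With the dendritic sum it was -1.23 (edgeR adjusted p = 0.0355), in a fit that called 141, so Chac1 passed in both of these added fits. Over all alternatives its adjusted p ran from 0.0149 to 0.352. Why the covariates move this value was not tested.

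Trib3, a pseudokinase that dampens ATF4, stood at 23.1, 22.3 and 16.9 FPKM in WT, 10.5, 17.1 and 16.2 FPKM in LILRB4, and 20.5, 14.1 and 14.4 FPKM in SCG2 knockout libraries. The highest LILRB4 library was just above the lowest WT library. Trib3 had a log2 fold change of -0.54 (SE 0.22, adjusted p = 0.190) in LILRB4 against WT and -0.32 (SE 0.22, adjusted p = 0.488) in SCG2 knockout against WT. Atf5, a transcription factor regulated like ATF4, stood at 95.7, 104 and 78.5 FPKM in WT, 57.4, 72.1 and 80.9 FPKM in LILRB4, and 82.7, 70.6 and 72.4 FPKM in SCG2 knockout libraries, and its groups overlapped. Atf5 had a log2 fold change of -0.43 (SE 0.17, adjusted p = 0.166) in LILRB4 against WT and -0.27 (SE 0.17, adjusted p = 0.438) in SCG2 knockout against WT.

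Atf4, the central factor of the response, was abundant and even, at 258, 318 and 252 FPKM in WT, 251, 260.0 and 297 FPKM in LILRB4, and 322, 259.8 and 251 FPKM in SCG2 knockout libraries. Atf4 had a log2 fold change of -0.07 (SE 0.17) in LILRB4 against WT and 0.10 (SE 0.17) in SCG2 knockout against LILRB4, with adjusted p of 0.844 and 0.879. Ddit3, which encodes CHOP, stood at 45.1, 37.2 and 28.8 FPKM in WT, 39.5, 25.0 and 46.9 FPKM in LILRB4, and 49.9, 39.1 and 44.3 FPKM in SCG2 knockout libraries. Its groups overlapped, with -0.02 (SE 0.25, adjusted p = 0.963) in LILRB4 against WT and 0.31 (SE 0.25, adjusted p = 0.683) in SCG2 knockout against LILRB4.

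The remaining factors were Ppp1r15a, the phosphatase subunit GADD34 that reverses eIF2 phosphorylation, Ddit4, an inhibitor of mTORC1, Nupr1, Sesn2 and Vldlr. Their log2 fold changes ran from -0.14 (Nupr1) to 0.33 (Ddit4) in LILRB4 against WT and from -0.10 (Ppp1r15a) to 0.39 (Nupr1) in SCG2 knockout against LILRB4 (smallest adjusted p 0.401). Vldlr was the least abundant of the 36 genes, at 1.06 to 1.82 FPKM. Over the 10 genes of this role, 7 were lower in LILRB4 than in WT (median -0.08), and 8 were higher in SCG2 knockout than in LILRB4 (median 0.19).

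**Figure D4:**
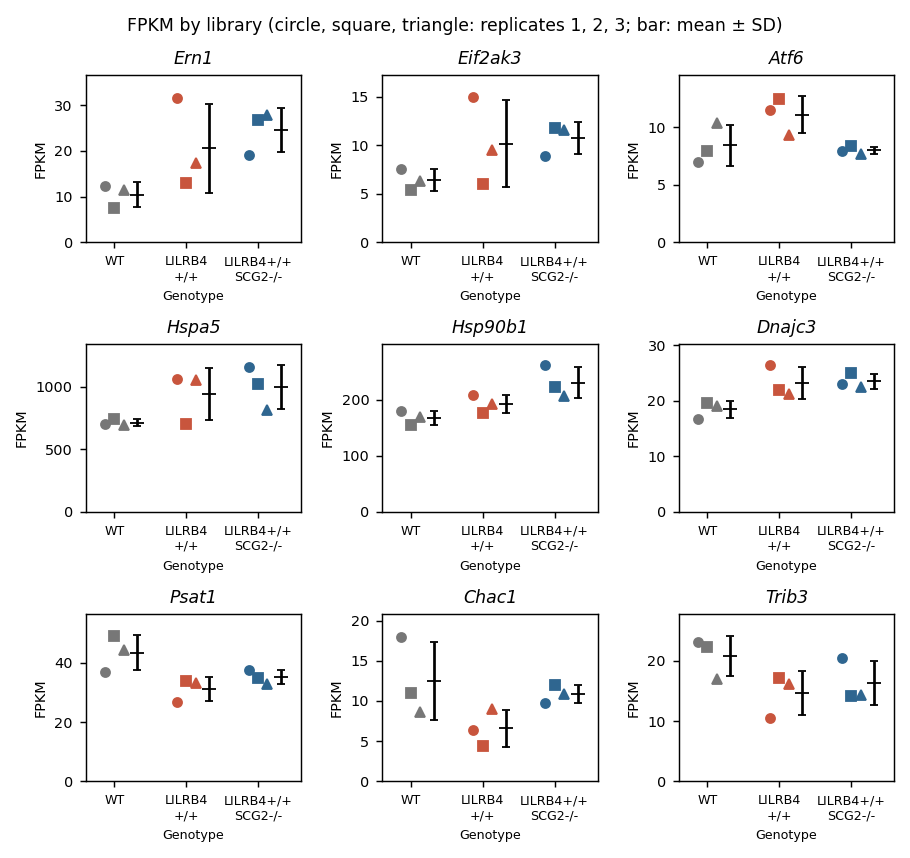
FPKM (vertical axis, starting at 0) of 9 genes in each library by genotype, with circles, squares and triangles for replicates 1, 2 and 3 and bars for the mean ± SD (n = 3). Ern1 and Dnajc3 are clear of WT in both other genotypes, Hspa5 and Hsp90b1 only in LILRB4+/+ SCG2-/-, and Psat1 is lower in every LILRB4+/+ library than in any WT library.

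Groups that did not overlap at all were counted for the 36 genes and for all genes. In LILRB4 against WT, 4 genes lay wholly above (Ern1, Xbp1, Edem1 and Dnajc3) and 1 wholly below (Psat1), against 12.4% and 12.7% of all genes. Against LILRB4, 4 genes of the SCG2 knockout lay wholly above (Calr, Slc7a5, Shmt2 and Chac1) and 2 below (Atf6 and Xbp1), against 6.47% and 10.9%. Against WT, 10 lay wholly above and 0 below, against 11.9% and 11.5%. Those 10 were Hspa5, Calr, Hsp90b1, Pdia4, Hyou1 and Dnajc3 of the chaperones, Slc7a5, Edem1, Ern1 and Eif2ak3. Whether these shares differ from the background was not tested.

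Other genes of the same pathways were followed in lists of 28, 14, 6, 10, 17 and 19 tested genes, which hold none of the 36. In LILRB4 against WT they gave 1 call by edgeR and 4 by DESeq2. Of all genes, edgeR called 1.73% higher and 0.516% lower, and DESeq2 called 9.36% in either direction. Slc7a11, the cystine transporter that ATF4 and NRF2 switch on, rose in LILRB4 against WT in both edgeR fits (log2 fold change 1.64, SE 0.24, adjusted p = 0.0214 on the count table and 0.0210 on recovered counts). It stood at 10.8, 13.2 and 15.5 FPKM in WT, 54.1, 34.0 and 36.9 FPKM in LILRB4, and 20.8, 33.7 and 29.8 FPKM in SCG2 knockout libraries, so that both other groups were above WT and every LILRB4 library was above every SCG2 knockout library. The adjusted p was above the threshold without WT replicate 1, 2 or 3 or LILRB4 replicate 1 (0.0501, 0.0583, 0.0871 and 0.0664), with log2 fold changes of 1.43 to 1.76. It was also above the threshold with limma on log2(FPKM + 1) and no filter (0.0908), and without the 3 libraries lowest in T and NK markers (2.02, adjusted p = 0.216). With the replicate number as a block it was 0.0601. Its log2 fold change in SCG2 knockout against LILRB4 was -0.51 (SE 0.23, adjusted p = 0.454). The remaining 27 of 28 tested ATF4 pathway genes passed neither with edgeR nor with DESeq2, and the list's median was -0.11, against -0.02 for all genes. Slc7a11 rose in LILRB4 libraries, while Psat1, Asns, Chac1 and Trib3 of the same pathway had lower means there, none of them past the test.

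Of 14 other genes for degradation in the endoplasmic reticulum, all 14 had a higher fitted mean in LILRB4 than in WT (median 0.22) and 0 passed with edgeR. The smallest p-values were those of Sel1l, the adaptor of the ubiquitin ligase HRD1 (0.49, SE 0.15, adjusted p = 0.106), and Os9, a lectin of the same complex (0.32, SE 0.12, adjusted p = 0.146). Both passed with DESeq2 (adjusted p = 0.0349 for Sel1l and 0.0293 for Os9). Of 6 mitochondrial chaperones and proteases, 6 had a lower mean in LILRB4 than in WT (median -0.41) and 0 passed with edgeR or DESeq2, led by Dnaja3 (-0.40, SE 0.14, adjusted p = 0.123) and Hspd1 (-0.52, SE 0.25, adjusted p = 0.25). Without WT replicate 1 the value of Hspd1 was -0.18. That library had the highest sum of immediate-early and heat shock genes that tissue dissociation can induce (4362 FPKM, against 2186 and 2094 FPKM in the other WT libraries). Among them, Hspa1b stood at 1386 FPKM there, against 300 and 364 FPKM in WT replicates 2 and 3. The part of these genes in the value of Hspd1 was not tested. Mitochondrially encoded mRNAs summed to 4918 to 7600 FPKM in WT, 8577 to 14768 FPKM in LILRB4 and 3729 to 7676 FPKM in SCG2 knockout libraries, and their part in this was not tested. Among 10 eIF2 kinase, eIF2B and phosphatase genes (median -0.12), 17 other folding genes (median 0.01) and 19 translocon and glycosylation genes (median 0.07), 0 passed with edgeR in LILRB4 against WT, and DESeq2 called Ppp1r15b (adjusted p = 0.0256). The smallest edgeR p-values of these lists belonged to Ppp1r15b (0.43, adjusted p = 0.118), Ero1lb (0.37, adjusted p = 0.191) and Sec63 (0.39, adjusted p = 0.139). When SCG2 knockout was set against LILRB4 or WT, 0 genes of any of these lists passed the edgeR test, as for all genes. DESeq2 called Slc7a11 in SCG2 knockout against WT (1.11, adjusted p = 0.00354) and 0 genes of the lists in SCG2 knockout against LILRB4.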

How the data were processed

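Poly-A RNA of sorted M-MDSCs was sequenced with a kit that keeps the strand, per the labels' protocols, and the submitters' processing notes name the aligner HISAT2 2.0.5 and the counter featureCounts 1.5.0-p3. For the build, the annotation and the strand setting, nothing is given in the sources used here, so reads of overlapping antisense genes may not be separated. Both ends of all 36 genes matched the GRCm38 reference annotation, and positions are quoted on that build. The authors deposited raw counts for 9877 genes and FPKM with gene lengths for 54532. The deposited FPKM values times length gave whole numbers for 100% of values within 0.01, called recovered counts. The tables differed for 47 genes, of which 0 were among the 36.

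Deposited counts were fitted with edgeR 4.0.16 in R 4.3.3 (TMM, minimum count of 10, robust quasi-likelihood, 9 libraries, 6 residual degrees of freedom), with Benjamini-Hochberg adjustment over all genes tested and a threshold of 0.05. Alternatives used recovered counts, DESeq2 1.42.0, limma 3.58.1 on log2(FPKM + 1) and log2(FPKM + 0.1), other scalings and filters, only the 2 groups compared, a replicate block and each library left out, and 3 more were added after marker sums were seen. The fit was run on simulated counts with known fold changes, where the check was only that their median was recovered. How often the test calls changes of a given size is not reported here, so 0 calls do not show that the genes are unchanged. The members and lists were chosen with earlier results of these data known. All 36 genes may be named; those given in full include the 4 of smallest p in each direction of each comparison, and from the other lists only genes past both fits or, where none, those of smallest p. The 5 promoters with the most motif matches and highest level were printed. A planned look at protein ends was not made.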

Additional observations from a re-analysis of the deposited data

How the results depend on the processing

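In SCG2 knockout against LILRB4, 0 of the 36 genes passed under every alternative run, and the median log2 fold change stayed above 0. In LILRB4 against WT the count of genes past the threshold was 0 in the analysis reported, 2 with DESeq2, 1 with library totals and no TMM factors, 1 with the T and NK marker sum as a covariate, and 1 with the dendritic sum. In SCG2 knockout against WT it was 1 with DESeq2 and 0 otherwise. With each library left out in turn, the count ran from 0 to 2 in LILRB4 against WT, with the 2 reached without LILRB4 replicate 2, and from 0 to 0 in both other comparisons. The medians ran from 0.05 to 0.14 in LILRB4 against WT, and for the SCG2 knockout from 0.07 to 0.18 against LILRB4 and from 0.13 to 0.23 against WT. With the T and NK sum as a covariate the medians were 0.07 in LILRB4 against WT, 0.14 in SCG2 knockout against LILRB4 and 0.11 in SCG2 knockout against WT, and with the dendritic sum 0.04, 0.16 and 0.09. With library totals the median in LILRB4 against WT was -0.0746, where all genes shifted by -0.14. Without the 3 libraries lowest in T and NK markers, which leaves WT with 1 library assumed to vary like the other groups, the median in SCG2 knockout against LILRB4 was 0.07 and 0 genes passed. The replicate numbers did not pair the libraries (correlations of same-numbered libraries from -0.54 to 0.66), and with the replicate block 0 genes passed and the medians were 0.06, 0.17 and 0.19 in the order just given. Fold changes that passed in no fit changed sign under some alternative for 13, 11 and 12 of the 36 genes. With 1 library left out, the fold change moved by over 1.5 times or changed sign for 28, 31 and 21 of the 36 genes, with the comparisons in that same order. The number of libraries, 3 a group, limits the precision. The 36 genes held from 171 (Chac1) to 118523 (Hspa5) counts in a library. Their median SD within a group was 10.1 to 14.5% of the mean FPKM. The share of counting error in this spread was not tested. Over the whole table, genes called in LILRB4 against WT numbered 222 (171 higher, 51 lower), 924 with DESeq2 and 458 with library totals (137 higher, 321 lower). They numbered 309 with the T and NK sum as a covariate, 141 with the dendritic sum and 1 with the replicate block. With a library left out they numbered 0 (without WT replicate 2 or 3) to 689 (without LILRB4 replicate 2).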
